A study of Mus musculus with 28 samples.

Results

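The data cover 10 genes of microglia and of the complement system in mice that carry a knocked-out allele of Myt1l, the gene of a neuronal zinc finger protein that binds DNA. The genes were chosen by name: C1qa, C1qb, C1qc, Cx3cr1, P2ry12, Tmem119, Csf1r, Trem2, Aif1 and Ctss. All 10 were listed at both ages, among 13846 genes in embryonic cortex and 14104 genes in adult prefrontal cortex (PFC). Embryonic cortex (E14.5, mid-gestation) was taken from 6 wild-type (WT), 6 heterozygous (Het) and 4 homozygous (Hom) animals. Adult PFC was taken from 6 WT and 6 Het animals, and adult Hom animals are not analysed here. Every library carries its own identifier and is named here by the sex letter and number of its label, as in Het F10. The WT, Het and Hom groups at E14.5 hold 5, 3 and 3 libraries labelled female and 1, 3 and 1 labelled male, and each PFC group holds 3 of each sex. The sources used here do not give the strain, the adult age or the form of the mutant allele.

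Microglia are the resident macrophages of the brain; they arise from yolk sac precursors and settle in the cortex before birth. They are the main source of C1q in the brain, the recognition protein that starts the classical complement pathway and that tags synapses and debris for removal. Csf1r signalling keeps them alive, and the transcription factor PU.1 directs much of their gene programme. Border-associated macrophages of the meninges and choroid plexus share many of these genes, so in whole tissue the 10 genes report on brain macrophages together. In such bulk libraries fewer macrophages and less RNA per macrophage cannot be told apart.

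Levels are given in CPM (counts scaled to a common library total) recovered from the deposited log2 values, which the authors had already adjusted for unwanted variation, so raw sequencing depth is unknown. Changes are log2 differences of CPM + 0.5 from limma with labelled sex as a covariate, and a gene is said to be called, or to have changed, when its Benjamini-Hochberg adjusted p over all genes tested is below 0.05. Myt1l itself averaged 55.5 ± 8.16 (SD, n = 6) CPM in E14.5 WT, 42.8 ± 11.1 (n = 6) in Het and 20.2 ± 2.35 (n = 4) in Hom cortex, and 158 ± 8.48 and 114 ± 6.70 (n = 6 each) in PFC WT and Het. It was called lower in Hom than in WT (log2 -1.43, limma adjusted p = 0.000112) and in PFC Het than in WT (-0.47, adjusted p = 0.000139), but not in Het against WT at E14.5 (-0.39, adjusted p = 0.125). The 2 E14.5 Het libraries F10 and M11 went against their labelled sex: the Y-linked gene Ddx3y was at 21.6 CPM in F10 and at 0 in M11. Without them Myt1l was again called lower in Hom than in WT (log2 -1.43, limma adjusted p = 4.12e-07). F10 and M11 were also the lowest Het libraries for Myt1l, at 30.8 and 30.6 CPM. The Het libraries that remained were at 41.1, 46.0, 48.9 and 59.5 CPM, against 45.9 to 66.6 CPM in WT. As tissue checks, Fabp7 of radial glia averaged 974 CPM in E14.5 WT and Snap25 of neurons 6916 CPM in PFC WT, and the choroid plexus gene Ttr averaged 2441 CPM in E14.5 WT but 0.391 CPM in PFC WT.

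In WT tissue every one of the 10 genes was more abundant in adult PFC than in E14.5 cortex. The ratio differed greatly between genes, from 3.47 times for Aif1, which encodes the calcium-binding protein IBA1, to 47.8 times for C1qa. The tables of the 2 ages were normalized separately, so these ratios are a description with no test. Over 11232 genes with at least 1 CPM at both ages the median ratio was 1.14, with quartiles of 0.559 and 2.61. A ratio above the lowest of the 10 genes was held by 19.1% of those genes, and one above the median of the 10, 12.6, by 4.98%. For each of the 10 genes the lowest PFC library of either genotype lay above the highest E14.5 library, by 1.59 times for Aif1 and by 19.1 times for C1qa. The share of all genes with the libraries of the ages apart in this way was not counted.

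The genes with the largest ratios were C1qa, Tmem119 at 38.2 times and P2ry12 at 23.5 times. Tmem119 encodes a membrane protein and P2ry12 an ADP receptor, and both are known in mice as markers of mature microglia. C1qc followed at 14.9 times and Trem2, a lipid-sensing receptor, at 14.53 times. Ctss, a lysosomal cysteine protease, stood at 10.7 times and C1qb at 10.3 times. Csf1r reached 6.94 times and the fractalkine receptor gene Cx3cr1 3.69 times. The make-up of the group therefore differed between ages: Cx3cr1 gave 20.3% of the summed CPM of the 10 genes in E14.5 WT and 7.40% in PFC WT, and C1qa 2.02% and 9.54%.

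**Figure D1:**
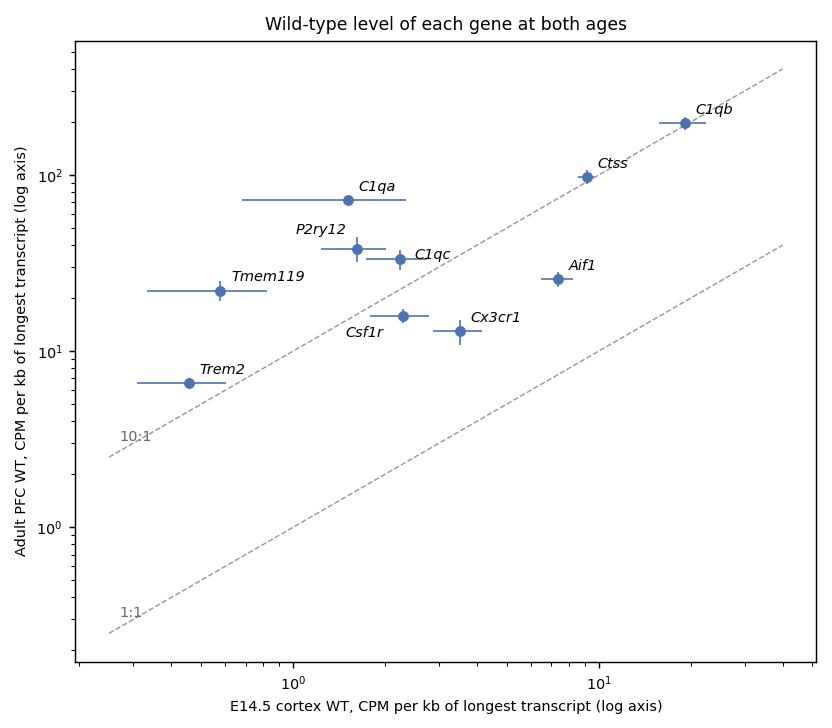
Mean WT level of each gene in CPM per kb of its longest transcript, E14.5 cortex on the horizontal and adult PFC on the vertical log axis, with bars of 1 SD over 6 libraries and dashed lines at ratios of 1 and 10. All 10 genes lie above the 1:1 line, and C1qa, Tmem119 and P2ry12 lie farthest above the 10:1 line.

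Levels of different genes were compared per kb of the longest annotated transcript, which has 4784 bp for Trem2 and 875 bp for Aif1. Which transcripts were expressed was not examined, so the order holds for these lengths only. Before this division Trem2 averaged 31.7 CPM and Aif1 22.3 CPM in PFC WT. In PFC WT the order began with C1qb at 197 ± 16.1 CPM per kb (SD, n = 6), Ctss at 97.8 ± 8.53 and C1qa at 72.3 ± 2.86, and the ranges of these neighbours did not overlap. P2ry12 (38.2 ± 6.03), C1qc (33.3 ± 4.29), Aif1 (25.5 ± 2.52) and Tmem119 (22.1 ± 2.83) followed, each overlapping the next. Csf1r (15.9 ± 1.38) overlapped Cx3cr1 (12.98 ± 2.14), and Trem2 was lowest at 6.63 ± 0.399 CPM per kb. In E14.5 WT C1qb was again first at 19.1 ± 3.40 and Ctss second at 9.14 ± 0.578, here overlapping Aif1 at 7.36 ± 0.864. Cx3cr1 came next at 3.51 ± 0.642 CPM per kb, and from there down to Trem2 at 0.456 ± 0.146 every gene overlapped its neighbour. By this measure C1qa ranked 3 of 10 in the adult and 8 of 10 in the embryo.

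The complement genes C1qa, C1qb and C1qc encode the A, B and C chains that assemble into C1q. They lie side by side on the minus strand of chromosome 4 (GRCm38): C1qb at 136880129 to 136886187, C1qc at 136889804 to 136893065 and C1qa at 136895917 to 136898803. The gaps between them are 3616 and 2851 bp, with 0 other annotated genes inside the span. Although the chains form 1 complex, the transcripts were far from equal: in PFC WT C1qb stood at 197, C1qa at 72.3 and C1qc at 33.3 CPM per kb, and in E14.5 WT at 19.1, 1.51 and 2.23 CPM per kb.

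Promoters are shown for C1qb, the most abundant of the 10 genes, and for Trem2, the least abundant per kb of longest transcript. Also shown is that of Ctss, whose Hom and WT libraries did not overlap. The letters are the 250 bases before the RefSeq transcript start (GRCm38.p6), 5′ to 3′ on the gene's strand, at chr4:136886201-136886450 (minus strand), chr17:48346151-48346400 (plus strand) and chr3:95526536-95526785 (plus strand). Capitals mark GAGGAA, the core of PU.1 sites, or its reverse complement.
C1qb: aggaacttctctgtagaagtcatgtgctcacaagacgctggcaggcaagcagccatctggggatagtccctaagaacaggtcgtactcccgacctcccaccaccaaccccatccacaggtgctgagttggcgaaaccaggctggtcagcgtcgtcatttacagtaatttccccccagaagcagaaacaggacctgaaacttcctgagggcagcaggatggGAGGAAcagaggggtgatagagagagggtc
Trem2: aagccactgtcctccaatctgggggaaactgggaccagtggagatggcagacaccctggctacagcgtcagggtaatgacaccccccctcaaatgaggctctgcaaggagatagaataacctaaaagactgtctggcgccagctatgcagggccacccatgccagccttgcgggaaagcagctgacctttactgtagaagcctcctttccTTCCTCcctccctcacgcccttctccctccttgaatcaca
Ctss: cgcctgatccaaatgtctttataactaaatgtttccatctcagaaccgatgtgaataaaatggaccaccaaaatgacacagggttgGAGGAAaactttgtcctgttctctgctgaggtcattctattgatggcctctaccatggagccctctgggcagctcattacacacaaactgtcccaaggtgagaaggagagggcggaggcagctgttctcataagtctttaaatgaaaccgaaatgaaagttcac
RefSeq windows from 250 bases before to 50 after the start were matched for 7 of the 10 genes; C1qa, Tmem119 and Csf1r were not. Searched on both strands, GAGGAA occurred in 5 of the 7, against 28.3% of 32851 promoter windows of the same length. It began 30 bases before the start in C1qb, 193 in C1qc, 40 in Trem2 and 7 in Aif1, and 164 bases before and at the start in Ctss. The MAF motif TGCTGAC was found in 0 of the 7 and in 4.67% of all windows. These matches describe letters only, and binding was not measured.

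At E14.5, none of the 10 genes was called in Hom against WT, where 7.6% of 12429 genes were called by limma. Of the 10, 3 had an unadjusted p below 0.05, against 23.2% of all genes, and limma with voom on the recovered numbers called 0. The median log2 change of the 10 genes was 0.09, against 0.02 over all genes tested. In Het against WT 0 of 10 were called, against 5.83% of all genes, with 2 at an unadjusted p below 0.05, against 22.3%, and 0 by voom; the medians were 0.18 and 0.03. In Hom against Het 0 of 10 were called against 0.00805% of genes, which is a single gene, Myt1l itself, with 1 of the 10 at an unadjusted p below 0.05, against 5.12%, and 0 by voom. That call of Myt1l (log2 -1.04, adjusted p = 0.0382) was lost on leaving out any of Hom F01, F04, F09 and M02, Het F07, M01 and M07, and WT F04, F06, F12 and M03, with adjusted p up to 0.467. Without Het F10 and M11 together it was -1.25 (adjusted p = 3.59e-05). Leaving out these 2 libraries moved the Het-against-WT change of C1qa from 0.08 to 0.29 and that of Csf1r from -0.14 to -0.19, neither called, and 2 of the 10 genes, Ctss and Aif1, were then called.

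**Figure D2:**
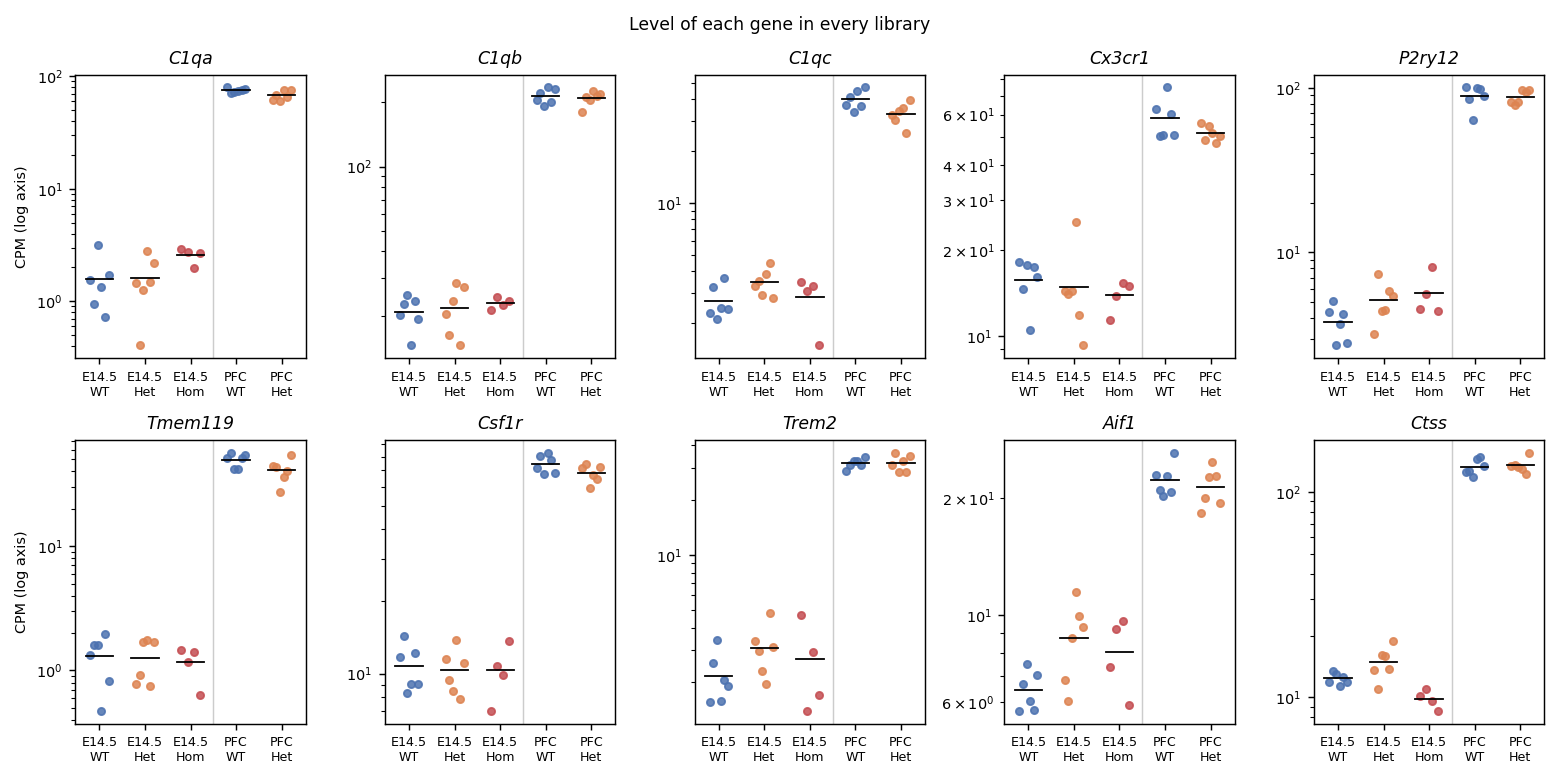
CPM of each gene in every library on a log axis, with a horizontal line at each group mean, for E14.5 WT (6), Het (6) and Hom (4) and adult PFC WT (6) and Het (6). The step from E14.5 to PFC exceeds every difference between genotypes; at E14.5 the 4 Hom libraries of Ctss, from 8.62 to 11.0 CPM, lie below all WT libraries.

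Ctss was the gene whose groups stood apart most at E14.5. Its 6 WT libraries had a lowest, median and highest level of 11.3, 12.3 and 13.5 CPM, the Het libraries 11.0, 14.8 and 18.8 CPM, and the 4 Hom libraries 8.62, 9.67, 10.2 and 11.0 CPM. All 4 Hom libraries were thus below every WT library, while 5 of 6 Het libraries were above every WT library. How many of all genes had Hom and WT libraries apart in this way was not counted. In that contrast 23.2% of all genes had an unadjusted limma p below 0.05. On the log2 scale Hom differed from WT by -0.30 (SE 0.13, limma adjusted p = 0.161) and Het by 0.28 (SE 0.12, adjusted p = 0.176). Hom against Het gave -0.59 (SE 0.14, unadjusted p = 0.000208, adjusted p = 0.59), the largest of the 10 genes in that contrast apart from C1qa, whose 0.60 had an SE of 0.32. Within the libraries sharing the identifier prefix 14424 the Hom-against-WT difference was -0.26 (3 Hom and 4 WT libraries). With 14526 it was -0.49, which rests on 1 Hom and 2 WT libraries. Without the libraries F10 and M11 the Het-against-WT change of Ctss was 0.40 and was called (adjusted p = 0.048, where 8.81% of 12343 genes were called).

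Aif1 ran from 5.69 to 7.52 CPM in E14.5 WT with a median of 6.35, and from 6.04 to 11.5 CPM in Het with a median of 9.04. Its 4 Hom libraries were at 5.89, 7.38, 9.21 and 9.70 CPM. In all, 4 of 6 Het and 2 of 4 Hom libraries exceeded the highest WT library, and the ranges overlapped. On the log2 scale Aif1 differed from WT by 0.41 (SE 0.17, limma adjusted p = 0.142) in Het and 0.29 (SE 0.18, adjusted p = 0.346) in Hom. Het F10 and M11 were the 2 lowest Het libraries, and without them the Het change was 0.60 and called (adjusted p = 0.0277). Over the same libraries 0 of 10 genes were called in Hom against WT and in Hom against Het, where 9.43% and 0.0081% of all genes were.

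Of the complement genes, C1qa was at 0.722, 1.44 and 3.16 CPM (lowest, median, highest) in E14.5 WT and at 0.405, 1.48 and 2.81 CPM in Het. The 4 Hom libraries were at 1.99, 2.69, 2.73 and 2.90 CPM, all above the WT mean of 1.57 but inside the WT range. The log2 change in Hom was 0.67 with a 95% interval from 0.03 to 1.31 (limma adjusted p = 0.195). C1qb, at 14.53, 21.3 and 24.8 CPM in WT and 14.47, 21.9 and 28.5 CPM in Het, held Hom values of 21.3, 22.3, 23.3 and 24.4 CPM. Its intervals ran from -0.18 to 0.50 in Hom and from -0.25 to 0.39 in Het (adjusted p = 0.605 and 0.841). C1qc was at 2.11, 2.43 and 3.64 CPM in WT, at 2.81, 3.40 and 4.47 CPM in Het and at 1.48, 3.07, 3.28 and 3.45 CPM in Hom. All 6 Het libraries of C1qc were above the WT mean, with overlapping ranges and a mean difference of 0.32 on the log2 scale (SE 0.21, adjusted p = 0.388).

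Among the receptors, P2ry12 was at 2.72, 3.94 and 5.07 CPM in E14.5 WT, 3.19, 4.97 and 7.43 CPM in Het and 4.41, 4.51, 5.63 and 8.11 CPM in Hom. Its mean was higher in both mutant groups, by 0.49 (SE 0.22, limma adjusted p = 0.17) in Hom and 0.30 (SE 0.20, adjusted p = 0.409) in Het on the log2 scale, and the ranges overlapped. The annotated span of Med12l on the opposite strand covers all 46600 bp of P2ry12; whether their exons overlap was not examined. Trem2 was at 1.57, 1.99 and 3.40 CPM in WT, 1.97, 3.06 and 4.78 CPM in Het and 1.40, 1.72, 2.94 and 4.68 CPM in Hom, where the libraries lay on both sides of the WT mean. Its log2 changes were 0.43 (SE 0.26, adjusted p = 0.342) in Het and 0.17 (SE 0.27, adjusted p = 0.751) in Hom.

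The means of Csf1r and Cx3cr1 were slightly below WT in both mutant groups. Csf1r ran from 8.30 to 14.3 CPM in WT, 7.86 to 13.8 CPM in Het and 7.00 to 13.7 CPM in Hom, and its log2 changes were -0.14 and -0.09 (limma adjusted p = 0.665 and 0.8). Cx3cr1 was at 10.5, 16.8 and 18.2 CPM in WT and at 11.4, 13.9, 15.0 and 15.3 CPM in Hom. In Het, 5 libraries lay between 9.27 and 14.4 CPM and M07 at 25.2 CPM, above every other E14.5 library. The changes of Cx3cr1 were -0.19 in Het and -0.18 in Hom (adjusted p = 0.583 and 0.613). The annotated span of Cx3cr1 overlaps 9 other annotated genes. Tmem119, at 0.474, 1.46 and 1.96 CPM in WT, 0.746, 1.30 and 1.76 CPM in Het and 0.639 to 1.47 CPM in Hom, had 95% intervals from -0.51 to 0.62 in Het and from -0.66 to 0.55 in Hom.

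Markers of cells that border the cortex were summed in each E14.5 library. The ranges of the groups overlapped, except that every Het library was above every Hom library for the choroid plexus genes. In Het against WT limma called 5.83% of all genes, and 22.3% had an unadjusted p below 0.05. Of 9 border-associated macrophage genes 7 were tested and 0 called by limma in Het, with 4 at an unadjusted p below 0.05 and a median log2 change of 0.39. Their summed level was 72.1 to 184 CPM in WT, 116 to 217 CPM in Het and 128 to 147 CPM in Hom. The choroid plexus genes were led by the thyroid hormone carrier gene Ttr. They summed to 1403 to 3986 CPM in WT, 3001 to 5205 CPM in Het and 1593 to 2886 CPM in Hom. Of 4 tested, 0 were called in Het against WT and 2 had an unadjusted p below 0.05. In Hom against Het 0 were called and 3 had an unadjusted limma p below 0.05, against 5.12% of all genes. Meningeal fibroblast genes summed to 170 to 356 CPM in WT, 254 to 380 CPM in Het and 288 to 328 CPM in Hom; of 6 tested, 1 was called higher in Het, Ogn (log2 0.76, adjusted p = 0.0221), a call lost on leaving out WT F04, WT M03 or Het F07, with adjusted p up to 0.0944. None of the listed genes of these cells was under 0.2 CPM in all libraries of a group. The part of these cells in the values of the 10 genes was not tested.

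In adult PFC, none of the 10 genes was called in Het against WT, where limma called 0.404% of 12870 genes; 3 had an unadjusted p below 0.05, against 13.6% of all genes, and voom called 0. Changes below 0 were found for 8 of the 10 genes, with a median of -0.10, against a median of 0.01 over all genes tested, of which 46.2% were below 0. That count rests on genes close to 0: Trem2 was below 0 (-0.01) with the identifier prefix as a block and P2ry12 above it (0.02), and Trem2 was also below 0 with each library centred on its median. C1qc, Tmem119 and C1qa had the lowest p-values. The intervals were narrower than in the embryo for each of the 10 genes.

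**Figure D3:**
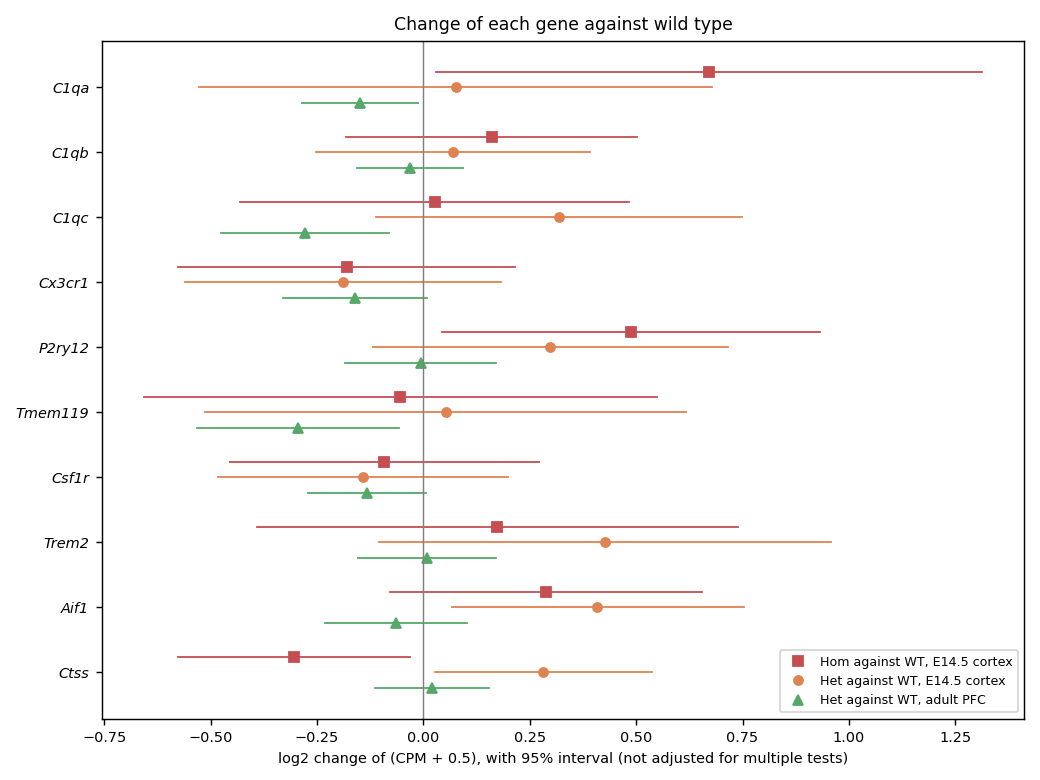
log2 change of CPM + 0.5 against WT with 95% limma intervals, for Hom (squares) and Het (circles) in E14.5 cortex and Het in adult PFC (triangles); intervals are not adjusted for multiple tests. The PFC interval is the narrowest for each gene. Among the PFC points those of C1qc (-0.28) and Tmem119 (-0.29) lie farthest below 0.

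C1qc was at 33.8, 39.1 and 46.9 CPM (lowest, median, highest) in PFC WT and at 25.5, 33.4 and 39.7 CPM in Het. All 6 Het libraries were below the WT mean of 40.1 CPM and 3 were below the lowest WT library. Het differed from WT by -0.28 on the log2 scale (SE 0.10, unadjusted p = 0.00771, limma adjusted p = 0.186). C1qa was at 71.6, 75.4 and 79.6 CPM in WT, a spread of 3.96% of the mean (SD), and at 60.5, 67.0 and 76.0 CPM in Het. Of the Het libraries, 4 of 6 were below the lowest WT library, and the change was -0.15 (SE 0.07, adjusted p = 0.318). C1qb, was at 192, 213 and 235 CPM in WT and 180.2, 212.5 and 227 CPM in Het, with a change of -0.03 and a 95% interval from -0.16 to 0.09. The intervals of the 3 chains overlapped, and a difference between the chains was not tested.

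Tmem119 was at 41.8, 51.2 and 56.5 CPM in PFC WT and at 27.3, 42.0 and 54.4 CPM in Het, with 3 of 6 Het libraries below the lowest WT library. Its change was -0.29 (SE 0.11, unadjusted p = 0.0179, limma adjusted p = 0.245). The lowest Het libraries were those labelled female, from 27.3 to 40.3 CPM, all below every WT library. The 3 Het females averaged 34.4 ± 6.61 CPM against 49.3 ± 6.71 in the 3 WT females, while Het and WT males averaged 47.3 ± 6.14 and 49.7 ± 7.44 (SD, n = 3 each). The test of that difference, genotype by sex, gave 0.45 (SE 0.20, unadjusted p = 0.0304, adjusted p = 0.532) and was not called. Over the 10 genes genotype by sex called 0, as over all 12870 genes (0%), with 1 of the 10 and 1092 of all genes at an unadjusted p below 0.05 by limma and 0 of the 10 called by voom.

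The remaining genes differed less between PFC genotypes. Csf1r was at 67.5, 74.6 and 83.0 CPM in WT and 59.2, 69.2 and 74.3 CPM in Het, and Cx3cr1 at 50.6, 55.6 and 74.8 CPM in WT and 47.6, 51.2 and 56.0 CPM in Het. For both genes all 6 Het libraries were below the WT mean, with overlapping ranges and changes of -0.13 and -0.16 (limma adjusted p = 0.386 and 0.394). P2ry12 ran from 63.6 to 101 CPM in WT and from 78.6 to 97.5 CPM in Het, Trem2 from 28.8 to 34.4 and from 28.5 to 36.3, and Ctss from 118 to 148 and from 122 to 155. The 95% intervals of these 3 genes ran from -0.18 to 0.17, from -0.15 to 0.17 and from -0.11 to 0.15 on the log2 scale. They are not adjusted for multiple tests or for the variation the authors had removed, so larger changes are not excluded. Aif1 was at 20.2, 21.9 and 26.2 CPM in WT and 18.3, 21.4 and 24.9 CPM in Het (log2 -0.06, interval -0.23 to 0.10). Erythroid genes, a sign of blood in the sample, summed to 333 to 576 CPM in WT and 318 to 503 CPM in Het, with medians of 477 and 338 CPM and overlapping ranges. All 5 tested had changes below 0, against 46.2% of all genes, with a median of -0.36. Of these, 4 had an unadjusted p below 0.05, against 13.6% of all genes, of which limma called 0.404%. Of the 5, 1 was called lower, Hbb-bt (log2 -0.54, limma adjusted p = 0.0441), a call lost on leaving out Het F02, F04, F07 or M08 or WT F04, M03 or M11 (adjusted p up to 0.135). The part of blood in the values of the 10 genes was not tested.

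By labelled sex, 0 of the 10 genes were called in PFC, where limma called 1.09% of genes; 1 of the 10 had an unadjusted p below 0.05, against 18.1% of all genes, and voom called 0. That gene was Aif1, at 22.8 to 26.2 CPM in WT females against 20.2 to 21.0 CPM in WT males and at 22.7 to 24.9 CPM in Het females against 18.3 to 20.1 CPM in Het males (n = 3 each). Within each genotype every female library lay above every male library. The share of all genes with the sexes apart in this way was not counted. The sex coefficient was -0.24 for male against female (SE 0.08, unadjusted p = 0.00604, adjusted p = 0.124). Sex was partly tied to the identifier prefix, since all libraries with 14308 were male and most with 14309 were female. With the prefix as a block the coefficient was -0.25 (adjusted p = 0.438), and the calls over all genes went from 140 to 9.

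Whether the Het effect differed between ages was tested directly, as the Het-against-WT change in PFC minus that at E14.5. Of the 10 genes 0 were called, against 1.36% of 11581 genes, with 2 at an unadjusted p below 0.05 by limma, against 16.7% of all genes, and 0 called by voom. The median of the 10 differences was -0.28, against -0.01 over all genes, and 8 were below 0, against 52.2% of all genes. C1qc had the largest, -0.60 (SE 0.23, adjusted p = 0.161), its mean being higher in Het at E14.5 and lower in Het in PFC. Aif1 followed at -0.47 (SE 0.19, adjusted p = 0.179), and Trem2, at -0.42, and Tmem119, at -0.35, had SEs of 0.28 and 0.29. Csf1r and Cx3cr1, both a little below WT at each age, had differences of 0.01 and 0.03. Without Het F10 and M11 the difference of Aif1 was -0.66 and was called (adjusted p = 0.0364), where 2.39% of 11532 genes were, and it was the only one of the 10.

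The 10 genes varied together only loosely from animal to animal. Among the 45 pairs, Pearson's r of log2(CPM + 0.5) had a median of 0.12 at E14.5 (16 libraries, from -0.53 to 0.74, 30 pairs positive) and 0.34 in PFC (12 libraries, from -0.29 to 0.67, 38 positive). After Benjamini-Hochberg adjustment over the 90 pairs 0 passed 0.05, and 2 pairs at E14.5 and 4 in PFC had a permutation p below 0.05. The strongest pair was C1qb with Tmem119 at E14.5, with r of 0.74, Spearman's rho of 0.74, permutation p = 0.00105 and 0.00141 and adjusted p = 0.0945 and 0.127. Without the 2 libraries farthest from the median of C1qb its r was 0.57, and in PFC the same pair had r of 0.13.

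The C1q genes, which adjoin each other, had positive r in PFC, but 0 of 3 pairs passed after adjustment, with r of 0.58 for C1qa and C1qc, 0.51 for C1qb and C1qc and 0.48 for C1qa and C1qb. Their rho values were 0.63, 0.61 and 0.27, and their permutation p-values for r were 0.0485, 0.0876 and 0.113 (adjusted p = 0.495, 0.495 and 0.508). Without the 2 farthest libraries these r values were 0.71, 0.41 and 0.11, and as deviations from the genotype means r was 0.34, 0.54 and 0.50. At E14.5 only C1qa and C1qb had a positive r (0.49), while C1qc had r of -0.33 with C1qa and -0.15 with C1qb. Taken as deviations from the genotype means, the median r over all pairs was 0.13 at E14.5 and 0.32 in PFC.

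**Figure D4:**
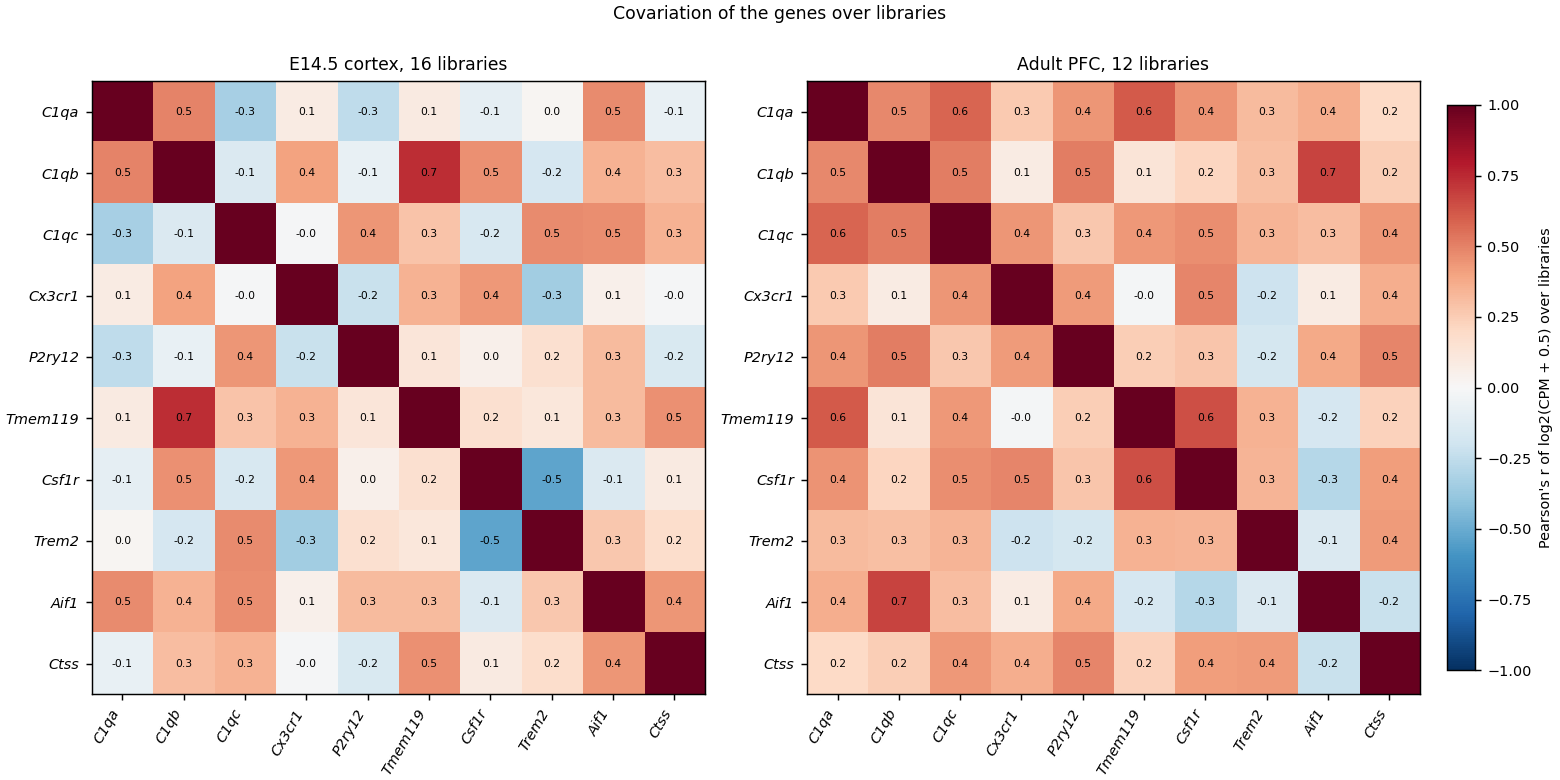
Pearson's r between the 10 genes over the 16 E14.5 libraries and the 12 PFC libraries, on log2(CPM + 0.5), with red for positive and blue for negative r. PFC pairs are mostly positive (38 of 45), whereas at E14.5 30 of 45 are positive and C1qc is negative with both other C1q genes.

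Other genes were ranked by their r with the mean standardized level of the 10 genes, a description over libraries that share 1 table and 1 normalization. At E14.5 the highest were Mynn (r = 0.91), Rnf103 (0.88), Tac1 (0.84), Cd48 (0.83), Gjb6 (0.82) and Cd86 (0.82), and Csf1, the gene of a ligand of Csf1r, was among the first 10 at 0.82. Cd48 and Cd86 encode surface proteins of immune cells. In PFC the highest were Jtb (0.93), Tpgs1 (0.91), Tsc22d4 (0.91) and Olfml3 (0.91), the last a known microglial gene. These genes top a ranking of 12419 genes at E14.5 and 12860 in PFC. How high r would reach by chance among so many was not tested. The median r was 0.37 for 17 other microglial genes at E14.5 and 0.42 for 21 in PFC, against 0.05 and 0.01 over all genes tested. For border-associated macrophage genes the medians were 0.67 at E14.5 and 0.06 in PFC, for meningeal genes 0.55 and 0.48, and for astrocyte genes 0.24 and 0.45.

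Further genes of the same pathways were read from lists of known genes. Of 17 other microglial genes tested at E14.5, 1 was called in Het by limma, Cd53, a tetraspanin of leukocytes, and 6 had an unadjusted p below 0.05. Over all genes these shares were 5.83% and 22.3%, so 1 call among 17 is near the background. Cd53 averaged 5.77 ± 1.37 CPM in WT (n = 6), 8.97 ± 1.83 in Het (n = 6) and 7.64 ± 1.57 in Hom (n = 4), and 32.3 ± 2.73 and 30.2 ± 2.71 CPM in PFC WT and Het. It was higher in Het at E14.5 by 0.63 (SE 0.18, adjusted p = 0.0368) and its age difference was -0.73 (adjusted p = 0.0542). The Het call was lost on leaving out any of Het F02, F07 and F10 and WT F04, F05, F06, F09 and M03, with adjusted p up to 0.141, and without both F10 and M11 (log2 0.60, adjusted p = 0.0599). In PFC 0 of 21 such genes were called, with 2 at an unadjusted p below 0.05.

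Ligands, partners and transcription factors of the 10 genes gave no call: limma called 0 of 12 tested in each E14.5 comparison and 0 of 15 in PFC. At an unadjusted p below 0.05 were 2 in Hom against WT, 5 in Het against WT and 3 in Hom against Het at E14.5, and 1 in PFC. Over all genes the shares were 23.2%, 22.3%, 5.12% and 13.6% in that order. Sall1, a transcription factor gene of microglia that neural progenitors also express, averaged 43.5 ± 4.09 CPM in E14.5 WT and 36.1 ± 6.32 in Het, and 3.60 ± 1.25 and 6.74 ± 2.75 in PFC WT and Het (n = 6 each). Its change was -0.29 at E14.5 and 0.80 in PFC, and the difference between ages was 1.09 (SE 0.29, limma adjusted p = 0.0542). Cx3cl1, the gene of the ligand of Cx3cr1, averaged 0.903 ± 0.296 CPM in E14.5 WT and 364 ± 17.2 in PFC WT, and Il34, the gene of a ligand of Csf1r, 2.68 ± 2.26 and 152 ± 5.63. The signalling adaptor of Trem2, Tyrobp, was at 20.5 ± 2.93 and 43.3 ± 5.71 CPM.

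Beyond C1q, 14 complement genes were tested at E14.5 and 16 in PFC. Of these, 1 was called, Clu in Hom against WT, where limma called 7.6% of all genes, so this call is near the background. The product of Clu, clusterin, inhibits the terminal pathway. Clu averaged 146 ± 12.4 CPM in E14.5 WT, 139 ± 9.81 in Het and 116 ± 20.6 in Hom (n = 6, 6 and 4). The Hom change was -0.36 (SE 0.09, limma adjusted p = 0.0184), lost on leaving out Hom F01 or F09 with adjusted p up to 0.108. In PFC Het the complement genes with an unadjusted p below 0.05 included the C3a receptor gene C3ar1 (-0.55), the protease gene C1ra (-0.56) and Clu (-0.13), with limma adjusted p from 0.264 to 0.292, and none of them was called. Of 11 lysosomal and antigen presentation genes tested at E14.5, 1 was called in Hom against WT, near the 7.6% of all genes. It was the protease gene Ctsd, lower in Hom, at 158 ± 5.75 CPM in WT and 131 ± 11.5 in Hom (log2 -0.29, limma adjusted p = 0.0471). That call was lost on leaving out any of Hom F01, F04, F09 and M02, Het F02 and F07 and WT F04, F05, F06, F09, F12 and M03, with adjusted p up to 0.17. Genes of activated microglia gave 0 limma calls among 6 tested at E14.5 and 7 in PFC. In each genotype comparison up to 1 had an unadjusted p below 0.05. Between the sexes in PFC 5 of 7 had an unadjusted p below 0.05, against 18.1% of all genes. Sex was partly tied to the identifier prefix there, and these 5 genes were not examined with the prefix as a block.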

How the data were processed

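RNA sequencing libraries of E14.5 cortex and adult PFC were compared by genotype. The labels' protocols name a Zymo RNA kit for extraction and SMARTer Ultra Low for library preparation. The submitters' processing notes name mm10 and the tools STAR, Bowtie2, HTSeq and Trimmomatic. The sources used here do not give their versions or whether counting used strand.

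The authors deposited 1 table per tissue as log2 CPM after RUVr, a removal of unwanted variation. A prior count of 2 was read from the values. CPM and the whole numbers behind it were recovered in each library, with 100% of values whole at a tolerance of 0.01; they are adjusted, not raw, counts. They total 27827467 to 30811856 per E14.5 library and 19601294 to 21275162 per PFC library, and a floor of 3 counts is 0.100 to 0.103 and 0.146 to 0.148 CPM, for counting error only. RUVr left 2 directions without variance among the 16 E14.5 libraries and 1 among the 12 PFC libraries, which the tests do not count.

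Genes that reached 1 CPM in 4 or more E14.5 libraries, or 6 or more PFC libraries, were tested on log2(CPM + 0.5) with limma 3.58.1 in R 4.3.3 (eBayes with trend and robust), with labelled sex as a covariate and 1 fit per table; the age difference came from 1 joint fit. On this scale changes of low genes are understated. Pearson and Spearman correlations used 100000 permutations. Coordinates and lengths are from GENCODE vM21 (GRCm38), matched by 13840 and 14098 genes, and promoters from RefSeq. Scripts were tested on simulated data.

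The genes and gene lists were chosen with earlier results of these data known. Named were all 10 genes, Myt1l, up to 4 genes per further list by lowest unadjusted p, the 10 genes most alike in each table and, chosen after their values were seen, the partner genes Cx3cl1, Il34 and Tyrobp. Alternatives were other pseudocounts, filters, scaling, covariates, voom, eBayes settings, an identifier-prefix block, separate fits, and leaving out libraries. A result of the complement list is not reported here.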

Additional observations from a re-analysis of the deposited data

Results flagged for a closer look

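Of 50 groups of libraries (10 genes in 5 groups), 1 held a library far from the others. Cx3cr1 was at 25.23 CPM in the E14.5 Het library M07, while the other 5 Het libraries lay between 9.27 and 14.4 CPM. The gap to the nearest library was 0.678 of the whole range, above the limit of 0.625 for 6 libraries. Chance alone sets about 1 in 20 groups apart in this way.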

How the results depend on the processing

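The count of called genes among the 10 stayed at 0 in all 7 comparisons under every alternative and every left-out library except 1 setting. That setting left out the E14.5 Het libraries F10 and M11, which went against their labelled sex and were lowest among Het for Myt1l. There 2 genes were called in Het against WT at E14.5 (Aif1 and Ctss) and 1 in the age difference (Aif1). The cause was not tested. With the identifier prefix as a replicate block 0 were called. Same-numbered libraries of different groups carry different identifiers. Counts over all genes moved more. Hom against WT gave 944 calls, from 468 (eBayes without trend and robust) to 1379 (only the 2 groups compared), and from 489 to 1105 with a library left out. Het against WT at E14.5 gave 724, from 225 to 1087, and from 131 (without Het F07) to 1176 (without Het M07). In PFC the count was 52, from 0 (eBayes without trend and robust) to 71, and from 3 (without WT F04) to 130 (without Het M09). The age difference gave 158, from 35 to 276, and from 40 to 340; sex in PFC gave 140, from 9 to 160, and from 16 to 277; genotype by sex gave 0 to 13. The Het call of Cd53 held in 8 of 12 other settings, the Hom calls of Clu and Ctsd in 11 and 6 of 12, and the PFC call of Hbb-bt in 5 of 10 and in 5 of 12 left-out fits, lost without Het F02, F04, F07 or M08 or WT F04, M03 or M11 (adjusted p up to 0.135). Raw depth is unknown, so the part of counting error in the wide intervals of C1qa and Tmem119 at E14.5 was not tested.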
